A study of Mus musculus with 2 samples.

Results

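The regions described here are sites of open chromatin that were listed in both genotypes but stood much lower in the list of the double knockout. A peak was paired with the peak of the other list that it overlapped by at least 1 bp, and each pair is 1 region. The authors' score of each peak was turned into a percentile within its own full list, with 100 for the strongest peak. Of 50953 pairs on the 19 autosomes, 5295 had a wild-type percentile at least 30 points above their double-knockout percentile, and these are called falling pairs. They make up 10.4% of the pairs, which is also the background share past this limit. The pairs were chosen by these 2 percentiles, so the share, the percentiles and the scores are given as descriptions.

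E2A and HEB are E proteins, transcription factors of the basic helix-loop-helix family that recognise the short E-box sequence as dimers. They drive early lymphoid progenitors into the T cell lineage, and Id proteins, which dimerise with them but lack a DNA-binding region, hold them back. Loss of E protein activity in the thymus is known to favour innate lymphoid fates. Early thymic progenitors (ETPs) are the most immature thymic cells of this path, before commitment to the T lineage.

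ATAC-seq, which marks accessible DNA by transposase insertion, was run on ETPs sorted from fetal thymus of C57BL/6 mice, with 1 library per genotype. Both sorts took cells without CD4, CD8, lineage markers or CD25 and with CD44 and c-Kit. The genotype label of the wild-type library reads wild type and names no engineered allele, without stating that Cre or a reporter was absent. The other library was E2Afl/fl HEBfl/fl IL7RCre, with both E protein genes floxed and Cre under the name of the interleukin-7 receptor, and its cells were sorted for YFP as well. The Cre acts only in cells that have switched the driver on, and deletion was not measured here. How old the embryos were, their sex and their number are not given in the sources used. In such bulk material, fewer cells with an open site and a less open site in each cell cannot be told apart.

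There were 85764 peaks in the wild-type list and 69896 in that of the double knockout, all but 1 per list of the same fixed width. The read depth is unknown. The wild-type list had 10 peaks on the Y chromosome and the double-knockout list had 0, so the libraries may differ in more than the genotype, and sex chromosomes were left out of all counts unless named. There was no replicate and hence no test between genotypes. Intervals are exact Clopper-Pearson 95% intervals, allow for counting error alone, as if peaks were independent. Ranks in lists of unequal length do not by themselves show a change in accessibility. Genotype, list length, depth and the YFP gate cannot be told apart. The DNA sequence and the genes at these mm9 coordinates were not analysed here.

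The falling pairs were regions of middle to high rank in wild-type ETPs and of low rank in the double knockout. Their median percentile was 68.7 in the wild-type list, with quartiles of 55.8 and 79.6. In the double knockout the median was 18.9, with quartiles of 8.3 and 32.5. Over all shared pairs the medians were 63.7 and 57.2, so the falling pairs were near the usual rank of a shared region in the wild type and far below it in the double knockout. Their median scores were 12.2 in the wild-type list and 4.25 in the double-knockout list, the second not far above the lowest score of that list, 2.55. A total of 4246 falling pairs (80.2%) lay in the upper 50% of the wild-type list and the lower 50% of the other. In 628 (11.9%) the wild-type peak was in the upper 25% and its partner in the lower 25%.

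**Figure D1:**
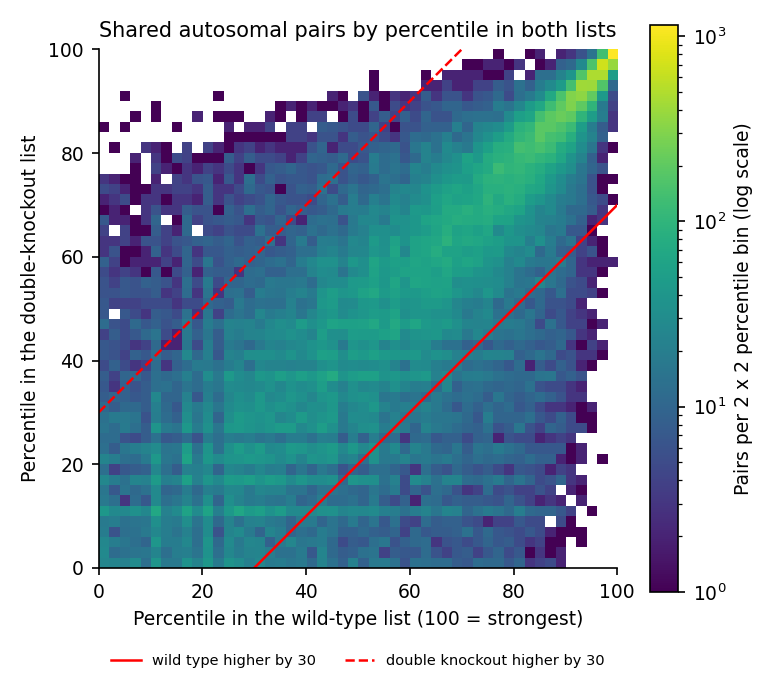
Percentile of each shared autosomal pair in the wild-type list (x axis) and the double-knockout list (y axis), as the number of pairs per bin of 2 by 2 points on a logarithmic colour scale. Most pairs follow a band that is narrow at the top of both lists, the 5295 falling pairs lie below the solid line, and the 1982 pairs above the dashed line are the mirror image.

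The strongest peaks of the wild-type list were seldom among them. Of the shared wild-type peaks between percentiles 70 and 80, 18.5% were falling (17.5 to 19.4%). Between 80 and 90 the share was 14.6% (13.8 to 15.4%), and in the top 10 percentiles it was 2.98% (2.62 to 3.38%). The median difference of all shared pairs also varied, at 7.5, 4.9 and 1.1 points in these bands. The bands were counted in the full-list ranking only, so how far their shares follow from that ranking was not tested. A peak below percentile 30 cannot meet the limit, and between 30 and 40 the share was 5.64%. Peaks with no partner at all were most frequent at the bottom. They made up 77.1% of the lowest 10 percentiles of wild-type peaks and 6.66% of the highest. From percentile 70 to 80, 22.0% of the wild-type peaks had no partner and 14.4% were falling, while between 80 and 90 these shares were close to each other, at 13.5% and 12.6%.

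**Figure D2:**
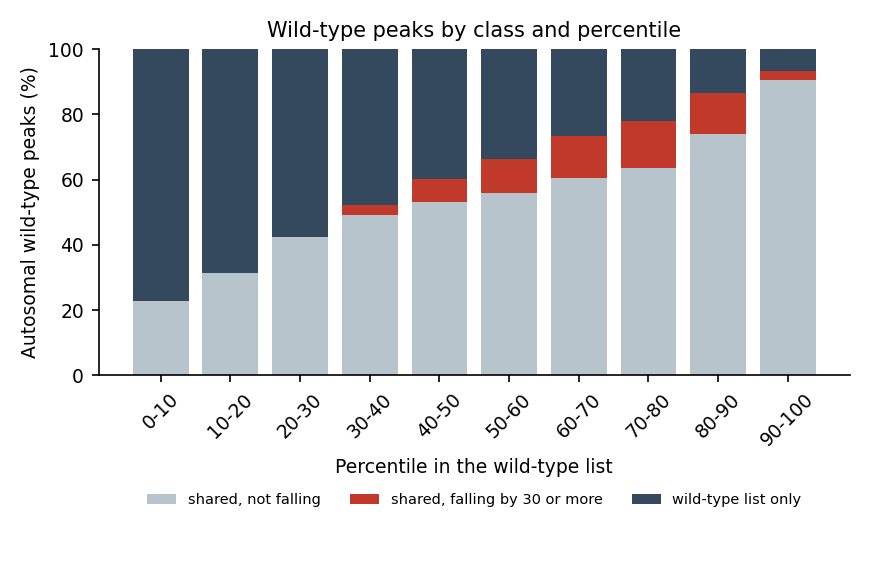
Autosomal wild-type peaks in bands of 10 percentiles (x axis), split into the percentage found in the wild-type list only, in falling pairs and in other shared pairs (y axis). The wild-type-only part shrinks from 77.1% to 6.66% from left to right, and the falling part is widest, at 14.4%, between percentiles 70 and 80.

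Far fewer pairs moved as much in the other direction. There were 1982 pairs (3.89%) with a double-knockout percentile at least 30 points higher, called rising pairs here, so that falling pairs were 72.8% (71.7 to 73.8%) of the pairs past either limit. The share of falling pairs grew with the size of the difference. At 50 points or more there were 1749 against 411 pairs (81.0%), at 70 or more 303 against 24 (92.7%), and at 80 or more 45 against 2 (95.7%).

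Most of this imbalance at 30 points depended on how the lists were ranked. The wild-type list has more weak peaks without a partner, which lifts the percentile of its shared peaks, and the median difference over all pairs was 2.70 points. When peaks were ranked among the shared pairs alone, 3626 pairs were falling and 2898 rising, a falling share of 55.6% (54.4 to 56.8%). With the wild-type list cut to as many peaks as the other, the counts were 3459 and 3004 (53.5%, 52.3 to 54.7%). In these rankings the median difference over all pairs was -0.53 and -0.74 points. The larger differences remained more often in the falling direction. At 60 points or more the falling share was 71.6% (68.1 to 74.9%) among the shared pairs and 67.3% (63.9 to 70.6%) at equal list lengths. At 70 points or more it was 84.2% (77.5 to 89.5%) and 71.1% (64.6 to 77.0%). At 80 points or more only 19 and 21 pairs were left, with wide intervals.

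**Figure D3:**
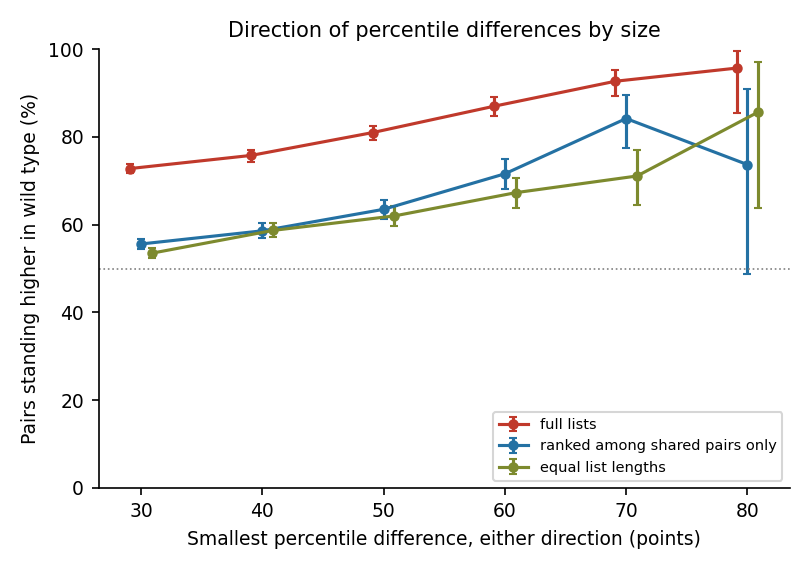
Percentage of pairs standing higher in the wild type (y axis) among all pairs that differ by at least the number of percentile points on the x axis, with exact 95% intervals for counting error. Ranking among shared pairs only, or at equal list lengths, lowers the 72.8% at 30 points to 55.6% and 53.5%, and in all 3 rankings the share is higher at 60 and 70 points than at 30.

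The regions with the largest differences were strong wild-type sites with a barely listed partner. The 12 largest spanned differences of 84.9 to 88.3 points, with wild-type percentiles of 86.4 to 93.3 and double-knockout percentiles of 0.1 to 6.7. The largest was at chr6:17431250-17431400, with a score of 34.4 in the wild type (percentile 93.3) and 3.29 in the double knockout (percentile 5.0). The peak centres lay 6 bp apart, and neither list had another peak within 10 kb, so this site stood alone in both. With the wild-type value given first here and in what follows, the pair at chr12:115783308-115783458 scored 26.7 (percentile 89.5) and 3.08 (1.7), and also had no other peak within 10 kb in either list. The pair at chr6:100291852-100292002 scored 25.2 (88.5) and 2.97 (0.8), again isolated in both lists. In those 3 regions no stronger peak of the double knockout was listed close by. The next were at chr16:92038248-92038398 and chr17:5830056-5830206, both with scores of 24.2 and 2.97 and a difference of 87.0 points. On chromosome 12 a further pair at chr12:53150385-53150535 scored 26.7 and 3.19, with centres 20 bp apart.

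Of the other 6, the pair at chr1:122017524-122017674 had the lowest double-knockout percentile, 0.1, with a score of 2.76 against 22.6 in the wild type. Its centres were 100 bp apart, so that its 2 peaks overlap only in part. The pair with the widest shift, of 116 bp, was at chr8:82987707-82987857, with scores of 27.2 and 3.29. There the double-knockout list had another peak 1027 bp away with a score of 3.5, so that both of its peaks there were weak. The pair at chr7:54460292-54460442 scored 32.5 and 3.4 and began a run of 4 consecutive falling pairs over 66998 bp. The remaining 3 were on chromosome 2. The peak at chr2:11161190-11161340 scored 24.2 and 3.08, that at chr2:170261798-170261948 scored 25.8 and 3.19, and that at chr2:84828273-84828423 scored 23.1 and 3.08.

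The falling pairs with the highest wild-type scores kept a middling rank in the double knockout. The strongest, at chr11:93682993-93683143, scored 57.5 in the wild type (percentile 98.4), and its partner 9.77 (58.5). The next, at chr13:83711344-83711494, scored 55.7 (98.2) and 9.77 (58.5). The pair at chr4:20704762-20704912 scored 51.9 (97.7) and 12.1 (66.4), with a difference of only 31.3 points. Percentiles at the top of a list are spread over wide score ranges, so a pair there can differ much in score and little in points. The largest differences among these 8 were 56.3 points at chr15:63479857-63480007, with scores of 49.5 and 6.58, and 50.6 points at chr12:12503551-12503701, with 50.2 and 7.43. The other 3 were at chr18:89094042-89094192 (49.0 and 10.1), chr15:4766890-4767040 (48.8 and 10.4) and chr2:101877394-101877544 (46.9 and 9.98). The chr15:4766890-4767040 pair was remote in the double knockout, where the nearest other peak lay 269417 bp away, against 57605 bp in the wild type.

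The limit of 30 points cuts through a continuous range. The 4 pairs just inside it all differed by 30.0010 points, with scores of 7.99 and 4.35. The 4 just outside differed by 29.9893 to 29.9996 points. The median difference of the falling pairs was 42.8 points, and 90% of them were below 64.8.

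Position along the chromosome was not used to choose the pairs. Rising pairs were counted by chromosome in the full-list ranking only. In that ranking, which carries the imbalance described above, falling pairs occurred on every autosome and outnumbered rising pairs on all 19. Their share of the shared pairs ranged from 7.26% on chromosome 19 (6.00 to 8.69%) to 12.3% on chromosome 1 (11.3 to 13.5%). The interval lay above the overall 10.4% on 2 chromosomes, 1 and 6 (11.6%, 10.5 to 12.9%). It lay below on 4, which were chromosomes 19, 11 (8.31%, 7.42 to 9.27%), 9 (8.93%, 7.88 to 10.1%) and 17 (8.99%, 7.86 to 10.2%). Ranking among shared pairs only left chromosome 1 above chromosome 19, at 8.16% (7.27 to 9.11%) and 4.39% (3.41 to 5.56%).

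**Figure D4:**
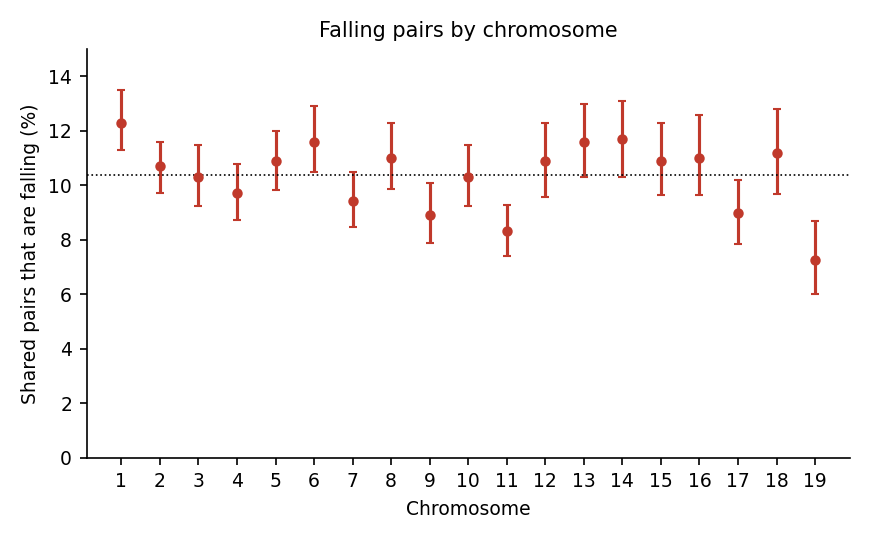
Percentage of the shared pairs of each autosome that are falling pairs (y axis), with exact 95% intervals for counting error, beside the 10.4% over all autosomes (dotted line). The values run from 7.26% on chromosome 19 to 12.3% on chromosome 1, and 13 of the 19 intervals hold the overall value.

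Falling pairs lay next to other falling pairs at short range. Around falling pairs, 84 of the 224 other shared pairs with centres 0.3 to 1 kb away were also falling (37.5%). At 1 to 2 kb it was 78 of 239 (32.6%), and at 2 to 5 kb 150 of 592 (25.3%). Around the pairs that were neither falling nor rising, the shares at these distances were 2.53%, 4.73% and 6.11%. At 5 to 10 kb the share around falling pairs dropped to 14.2%, against 8.12% around those other pairs. At 100 to 200 kb it was still the higher of the 2, at 11.0% against 8.49%. The 10.4% of all pairs counts each pair once. It is not the share to compare with here, since a pair with many neighbours is counted many times among neighbours. Rising neighbours were rare around both of these classes. Around the pairs neither falling nor rising they were 1.74% at 0.3 to 1 kb and 2.29% at 1 to 2 kb. Around falling pairs they were 2 of the 224 nearest (0.893%) and 0 of the 239 at 1 to 2 kb. The median difference of the neighbours was 23.67 points at 0.3 to 1 kb, 14.16 at 2 to 5 kb and 3.02 at 100 to 200 kb. Neighbours this close can belong to 1 broad accessible region listed as several peaks. Only 220 falling pairs had a neighbour within 1 kb. Rising pairs showed the mirror image, with 46.4% rising among neighbours at 0.3 to 1 kb. Ranked among shared pairs only, 24.4% (17.3 to 32.7%) of the neighbours within 1 kb of falling pairs were falling. Of all pairs, each counted once, 7.12% were falling in that ranking.

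**Figure D5:**
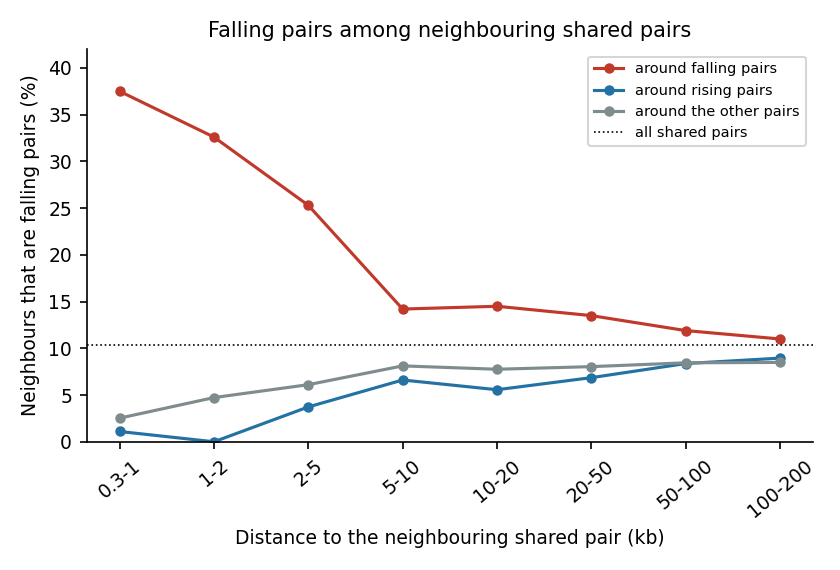
Percentage of neighbouring shared pairs that are falling pairs (y axis) by distance between wild-type peak centres (x axis, in kb), around falling, rising and other pairs, with the 10.4% of all pairs as a dotted line. Around falling pairs the share drops from 37.5% at 0.3 to 1 kb to 14.2% at 5 to 10 kb. The dotted line counts each pair once and is not the share among neighbours.

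Falling pairs stood in slightly sparser surroundings. Another wild-type peak lay within 1 kb of 8.46% of them (7.72 to 9.24%), against 16.4% of the other shared pairs (16.1 to 16.8%). Another double-knockout peak lay within 10 kb of 54.7% (53.3 to 56.0%), against 66.7% (66.3 to 67.1%). For rising pairs these shares were 13.5% and 67.1%, so only the first was below that of the pairs not falling. The median distance to the next peak was 6935 bp in the wild-type list and 8745 bp in the double-knockout list, against 5660 and 6255 bp for the other shared pairs. Within 100 kb on either side the median number of other peaks was 11 and 9, against 13 and 11. The same order held between pairs of like wild-type rank, in each of 7 bands from percentile 30 upwards. Between percentiles 70 and 80, a double-knockout neighbour within 10 kb was found for 56.3% of falling pairs (53.5 to 59.2%) and 74.8% of the others (73.6 to 75.9%). In the top 10 percentiles these shares were 55.3% (48.7 to 61.8%) and 64.0% (63.0 to 65.1%). These bands do not match double-knockout rank, which is low in falling pairs by the rule. Surroundings also varied with rank among pairs not falling, where the share was 60.7% between wild-type percentiles 30 and 40. Whether sparser surroundings go with falling or with a weak double-knockout peak was therefore not tested, nor were the other rankings.

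The peaks around falling pairs were more often missing from the double-knockout list. Of the 5705 other wild-type peaks counted within 10 kb of them, 45.4% had no partner, against 34.6% around the other shared pairs. A peak near several pairs is counted for each. Of the 4518 double-knockout peaks within 10 kb, 31.1% were found in that list only, against 27.4%. Around rising pairs, 36.8% of the wild-type peaks and 35.2% of the double-knockout peaks had no partner. A raised share of unpaired double-knockout peaks was thus not particular to falling pairs.

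Few pairs of any class had a stronger double-knockout peak beside the paired one. Within 500 bp, 108 falling pairs (2.04%) had another double-knockout peak with a higher score than their partner, against 2.95% of the pairs neither falling nor rising and 1.72% of the rising pairs. Within 1 kb it was 252 falling pairs (4.76%), against 7.05% and 4.04%. In 18 falling pairs (0.340%) a double-knockout peak within 1 kb reached the percentile that the wild-type peak had, against 6.89% and 14.8%. That percentile is high in falling and low in rising pairs by the way they were chosen, so these last shares are not comparable. The shares of pairs with a stronger peak are not adjusted for having a neighbour at all. A weak partner, which falling pairs have by the rule, also makes it easier for a neighbour to be stronger. The order of the classes in these shares therefore does not show that falling pairs have fewer stronger peaks beside them. Another double-knockout peak lay within 1 kb of 8.63% of falling pairs, against 17.6% of all pairs not falling and 16.0% of rising pairs. Leaving out every pair with another peak of either list within 1 kb kept 4633 falling pairs, 11.4% of the 40519 pairs left. Peak centres were somewhat further apart than usual. The median offset was 15 bp, against 9 bp for the other shared pairs, and 37.3% (36.0 to 38.7%) were within 10 bp, against 54.3% (53.8 to 54.8%). Rising pairs had the same median of 15 bp. The offset of the other pairs was larger among weak peaks, with a median of 14 bp up to a double-knockout percentile of 10 and 9 bp between 60 and 70. Falling pairs had medians of 17 bp up to percentile 10, and of 13 bp between 40 and 50, where the other pairs had 10 bp. Between 50 and 60 the median of the 211 falling pairs was again 17 bp, against 9 bp.

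Within a locus, rank order does not depend on the length of a list. Of the falling pairs, 2331 (44.0%) had at least 1 other shared pair within 10 kb. In 1296 of these the falling site had the highest wild-type score of the shared sites in its surroundings. In the double knockout 938 of the 1296 (72.4%, 69.9 to 74.8%) no longer held that place, while among pairs neither falling nor rising 18.5% (17.8 to 19.3%) of the locally strongest sites lost it. Large differences favour such switches by construction, so these shares are a description. At chr12:53150385-53150535, described above, the wild-type score of 26.7 stood beside 7.23 at a site 2903 bp away, and in the double knockout the same sites scored 3.19 and 6.05. At chr1:122017524-122017674 the leading wild-type site, with 22.6 against 4.6 at a site 8397 bp away, was the weaker in the double knockout with 2.76 against 6.48. At chr2:84828273-84828423 the scores were 23.1 and 3.83 in the wild type, and 3.08 and 4.67 in the double knockout, at sites 8478 bp apart. In these 3 loci the leading site changed, while the neighbour given stood below percentile 50 in both lists. The chromosome 1 site had 2 shared neighbours. Elsewhere the neighbour was higher in the wild type and also stood lower in the double knockout. It went from percentile 68.3 to 18.9 beside chr16:3732802-3732952, and from 56.9 to 18.9 beside chr13:52667950-52668100. Beside chr18:20975131-20975281 it went from 53.9 to 33.4, a difference of 20.5 points, so that neighbour was not a falling pair.

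Long clusters of falling regions were few in number, and the counts of windows and runs were not compared with a random placement of the pairs. In windows of 200 kb, 5044 of the 8672 with a shared pair held no falling pair, 2429 held 1 and 1199 held 2 or more. The highest number was 8, of 15 shared pairs, at chr2:18800001-19000000. The highest number of rising pairs in a window was 7. The falling sites there had wild-type percentiles of 48.8 to 95.1 and double-knockout percentiles of 1.7 to 58.9. The strongest, at chr2:18819598-18819748, scored 39.8 and 9.87, and the site with the largest difference, at chr2:18910625-18910775, scored 18.5 and 3.61. Not all sites of the window were falling, as the one at chr2:18919849-18919999 scored 44.7 and 51.5 and stood at percentiles 96.3 and 95.6.

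The window at chr7:50600001-50800000 held 7 falling pairs of 18. They lay on both sides of a group of strong sites that kept their rank, with the strongest at chr7:50720912-50721062 scoring 82.5 and 82.4 (percentiles 99.8 and 99.3). Among the falling sites, chr7:50605104-50605254 scored 32.9 and 9.34 and chr7:50788516-50788666 scored 31.4 and 6.48. The window at chr10:25000001-25200000 held 6 of 13, with wild-type percentiles of 48.1 to 83.9 and double-knockout percentiles of 3.2 to 31.5. The site of largest difference there, chr10:25038348-25038498, scored 20.2 and 3.29, while chr10:25079441-25079591 in the same window scored 33.3 and 36.0 and was not falling. The window at chr19:55600001-55800000 held 6 of 10, although chromosome 19 had the lowest share of all. Its leading site, chr19:55619048-55619198, scored 24.0 and 3.61. The window at chr8:111200001-111400000 also held 6, of 11, with the largest difference at chr8:111244853-111245003 (12.5 and 3.82). None of these 5 windows held a rising pair, where 3.89% of all shared pairs were rising. The windows were chosen for their falling pairs, which leaves few other pairs in them, so nothing is concluded from this.

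Counted along the sequence of shared pairs, 3512 falling pairs (66.3%) had no falling pair next to them, and 1783 (33.7%) were in runs of 2 or more. There were 36 runs of 4 or more, and the longest held 7 pairs, from chr2:18926577 to 19123549. That run continues the chromosome 2 window described above, and its sites include chr2:19067134-19067284 (30.6 and 4.78). A run of 6 lay on chromosome 8 from 68681246 to 68954805, with its strongest site at chr8:68929747-68929897 (23.3 and 4.78). The most compact run of 5 spanned 33559 bp on chromosome 16, from 3699394 to 3732952. Its wild-type scores were 10.2, 9.86, 24.4, 12 and 21.0, and its double-knockout scores were 3.61, 4.03, 4.88, 4.25 and 3.08 in the same order. All 5 sites were thus among the weaker 30% of the double-knockout list, with no double-knockout-only peak between them.

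On chromosome 14, the 2 Mb window with the greatest surplus of wild-type-only peaks (chr14:70000001-72000000) also held many falling pairs. Of its 34 shared pairs, 16 were falling (47.1%, 29.8 to 64.9%) and 0 rising, with a median difference of 22.6 points. In the 2 Mb before it, which had the next greatest surplus, 4 of 21 were falling (19%, 5.45 to 41.9%) and the median difference was -1.4 points. In the window with the third greatest surplus, chr1:136000001-138000000, 6 of 59 were falling (10.2%, 3.82 to 20.8%), close to the 10.4% of all pairs.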

How the data were processed

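Accessible regions of 1 wild-type and 1 double-knockout ATAC-seq library were used, grouped by the genotype label. The authors called peaks per library. The tools bcl2fastq 1.8.4, Bowtie and HOMER and the build mm9 are listed, per the submitters' processing notes, with no roles or settings. How read ends, duplicates and background were treated is not given in the sources used. The authors deposited a score per peak, whose scale is not stated, and it served only to rank and describe peaks within a list. Depth, duplicates and the peak threshold could each change the rank of a weak peak and the list length.

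Pairs, percentiles (average rank for ties), distances and counts were computed with pandas 2.3.3, SciPy 1.17.1 and NumPy 2.4.6 under Python 3.11.15, and the pairing was tested on simulated data. The members, gene lists and settings were chosen with earlier results of these data known. Pairs named are the 12 of largest difference, the 8 of highest wild-type score, 4 on each side of the limit, and those of the 5 fullest windows. Beyond this rule, the sites named for local order, in runs, on chromosome 14 or as unmoved neighbours were chosen after their values were seen. The planned counts by gene, gene location and sequence motif were not run, since the gene table at hand is of the build GRCm38 and coordinates were not converted. Coordinates are 1-based.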

Additional observations from a re-analysis of the deposited data

How the results depend on the processing

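No paired analysis was possible because each genotype had a single library, so that none could be omitted. Against 5295 falling pairs as reported, the count was 4865 when 50% of both peaks had to overlap, 5442 with centres within 200 bp, 5375 with the X chromosome, 4633 without pairs near another peak (chosen after seeing the data) and 3626 ranked among shared pairs. It was 3459 at equal list lengths, 2143 in the upper 50% of both lists, 9136 at a limit of 20 points and 3062 at 40. Equal lengths kept 65.3% of the reported pairs and the upper 50% only 4.34%, since most double-knockout partners lie below that cut. At limits of 20 and 40 points, the falling share was 20.5% and 7.21% on chromosome 1 and 13.6% and 3.73% on chromosome 19. A second double-knockout peak within 10 kb was found for 56.9% and 53.2%, and 46.8% and 24.5% of neighbours within 1 kb were falling. Ranked among shared pairs (added after seeing the data), chromosome 1 had 8.16%, chromosome 19 had 4.39% and neighbours within 1 kb 24.4%. With 50% overlap, which removes distant centres, 40.6% of centres were within 10 bp. The 20 pairs named by difference or score all stayed past the limit in every other ranking or overlap in which they were paired, except that 6 were below 40 points. Another sequence window, start-site distance or gene span was not run, for want of an mm9 genome. The depth behind the peaks is unknown, so the precision of weak scores cannot be given.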

Other observations

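On the X chromosome, which was left out of the counts above, 80 of 1253 shared pairs were falling (6.38%, exact 95% interval 5.09 to 7.88%) and 24 were rising. The share was below the 10.4% of the autosomes, and the median difference was 2.13 points, against 2.70. Genotype cannot be told apart there from the absence of Y peaks in the double-knockout list.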
